A study of Homo sapiens with 8 samples.

Results

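The transcripts examined were those of 10 genes of the Hippo pathway output, taken as a fixed list of symbols out of 69215 genes listed per library. They were YAP1 and WWTR1 (which encodes TAZ), TEAD1, TEAD2, TEAD3 and TEAD4, and the target genes CCN1, CCN2, AMOTL2 and ANKRD1. All 10 passed the expression filter and were among the 15931 genes tested. ANKRD1 passed it only through the SMARCB1 line, where 4 of 4 libraries exceeded the filter, against 0 of 4 in the GFP line. RNA was sequenced from G401, an established human rhabdoid kidney tumor cell line without functional SMARCB1. SMARCB1 is a core subunit of the SWI/SNF chromatin remodelers BAF and PBAF. The cells carried a Tet-On construct for either SMARCB1 or GFP, and each line was treated for 12 h with 0.1 µg/ml doxycycline (Dox), which switches the construct on, or with dimethylsulfoxide (DMSO). This gave 4 groups of 2 libraries each, SMARCB1 DMSO, SMARCB1 Dox, GFP DMSO and GFP Dox. All groups came from this 1 tumor cell line, the GFP and SMARCB1 cells are separately engineered lines, and plates were pooled for each condition. A difference between the lines can therefore not be told apart from the history of each line.

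In the Hippo pathway, a cascade of kinases (STK3 and STK4, then LATS1 and LATS2) phosphorylates the coactivators YAP and TAZ and keeps them out of the nucleus. When the cascade is quiet, YAP and TAZ enter the nucleus, bind the TEAD transcription factors, which recognize the DNA motif GGAATG, and switch on genes of growth, adhesion and the extracellular matrix. CCN1, CCN2, ANKRD1 and AMOTL2 are among the targets most often used to read out this activity. Control of YAP and TAZ acts largely on the protein, so that the RNA levels described here report on the abundance of the transcripts and not on where the proteins are.

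The upstream sequences of the targets were examined first, because the targets are the members that TEADs are known to bind. RefSeq windows (GRCh38.p14) were available for 7 of the 10 members, and CCN1, TEAD1 and TEAD4 were not in the table. The 250 bases before each annotated start were searched for GGAATG and its reverse complement CATTCC. Among all 35116 such windows, 11.9% held the motif, 0.94% held it at least 2 times and 0.0826% at least 3 times. CCN2 held it 3 times, with first bases 169, 104 and 95 bases before the start. ANKRD1 held it 2 times, at 220 and 128 bases before the start. YAP1 held it 1 time, at 162 bases. AMOTL2 held CATTCC 1 time before 1 of its 2 listed starts, at 69 bases. None was found in the windows of WWTR1, TEAD2 and TEAD3. A match describes the letters only. The windows of CCN2 (chr6:131951373-131951622, minus strand), ANKRD1 (chr10:90921088-90921337, minus strand) and YAP1 (chr11:102110197-102110446, plus strand) are shown 5′ to 3′, with the motif in capitals. CCN2 and ANKRD1 are shown because they separated the lines, and YAP1 because it is the coactivator that was called with SMARCB1. That call lay at the threshold (edgeR, adjusted p = 0.0484), and the difference from the GFP line was not called (edgeR, adjusted p = 0.232).
CCN2: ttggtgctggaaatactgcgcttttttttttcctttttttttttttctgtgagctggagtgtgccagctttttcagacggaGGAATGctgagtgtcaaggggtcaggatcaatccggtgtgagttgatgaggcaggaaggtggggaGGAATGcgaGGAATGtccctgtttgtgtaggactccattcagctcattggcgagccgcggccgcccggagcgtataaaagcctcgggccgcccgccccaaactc
ANKRD1: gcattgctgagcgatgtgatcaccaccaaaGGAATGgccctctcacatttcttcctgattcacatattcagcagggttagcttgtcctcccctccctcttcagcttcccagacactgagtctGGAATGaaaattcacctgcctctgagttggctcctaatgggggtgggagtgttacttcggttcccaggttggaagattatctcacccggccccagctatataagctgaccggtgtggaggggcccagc
YAP1: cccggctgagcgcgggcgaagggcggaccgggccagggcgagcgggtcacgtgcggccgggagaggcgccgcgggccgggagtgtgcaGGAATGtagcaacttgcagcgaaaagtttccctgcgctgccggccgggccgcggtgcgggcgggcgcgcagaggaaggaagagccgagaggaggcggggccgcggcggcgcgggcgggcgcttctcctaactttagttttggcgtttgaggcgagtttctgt

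Counts assigned to genes ranged from 29632090 to 37597477 per library, and mitochondrially encoded genes took 18.9% to 27.9% of them, the most in SMARCB1 DMSO replicate 1. SMARCB1 itself had 30474 and 29383 counts in SMARCB1 Dox, 10 and 21 in SMARCB1 DMSO and 0 in the 4 GFP libraries. It thus matched the labels of the SMARCB1 line, but it could not separate the 2 GFP groups. Of the genes checked as expressed in this line, VIM was at 678 to 1310 and SMARCA4 at 118 to 173 CPM. CPM are counts per 1000000 of the library, scaled with the TMM factors, as all levels here. Of 5 epithelial markers, KRT8 and KRT18 were expressed, and their list summed to 542 to 650 CPM in the SMARCB1 line and 890 to 994 CPM in the GFP line. The 3 blood markers summed to at most 3.67 CPM, with CD3E at 0. The 3 endothelial markers summed to at most 0.801 CPM and the 3 neural markers to at most 0.0343 CPM.

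The members spanned a wide range of RNA levels. Compared per kilobase of exon over all 8 libraries, CCN2 was the most abundant at 78.1 ± 23.8 CPM per kilobase (SD, n = 8), followed by TEAD1 at 56.9 ± 7.34, AMOTL2 at 37.7 ± 2.45 and YAP1 at 28.6 ± 2.34. TEAD4 (24.4 ± 1.77), CCN1 (20.3 ± 8), TEAD2 (13.4 ± 0.777), TEAD3 (12.1 ± 1.92) and WWTR1 (11.5 ± 1.5) followed, in the same unit, and ANKRD1 was lowest at 2.02 ± 2.22. These SDs span the 4 groups, and the order was not the same in each. In SMARCB1 Dox, CCN1 averaged 30.5 CPM per kilobase, above YAP1 (24.9) and TEAD4 (23.5), against 14 in both GFP groups, and TEAD3 (15) lay above TEAD2 (13.1). Over all 8 libraries, only the steps from TEAD1 to AMOTL2, from AMOTL2 to YAP1 and from WWTR1 to ANKRD1 left no overlap between the libraries of neighbours in this order.

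**Figure D1:**
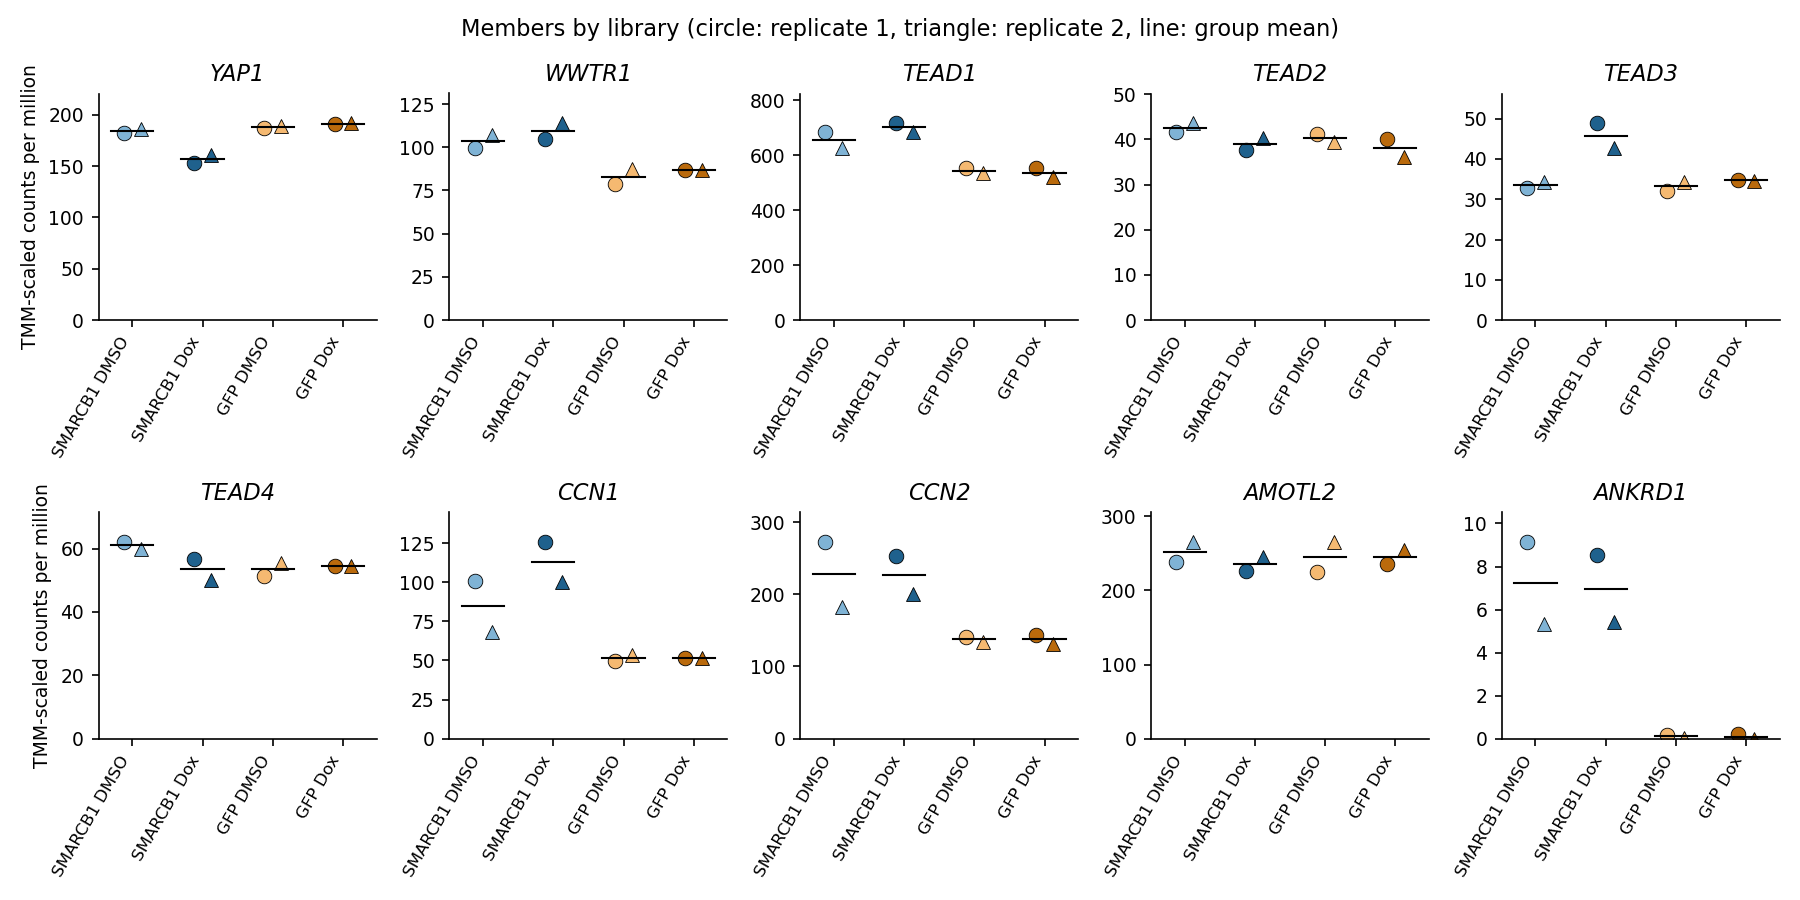
RNA level of each of the 10 members in each library, in TMM-scaled CPM (y axis, from 0), by group (x axis). Circles are replicate 1, triangles replicate 2 and lines group means. WWTR1, TEAD1, CCN1, CCN2 and ANKRD1 lie higher in all 4 libraries of the SMARCB1 line than in the 4 of the GFP line. The share of all genes so separated was not counted, while 32.0% of all genes were called between the uninduced lines. YAP1 is lowest in SMARCB1 Dox and TEAD3 highest there.

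The first question was whether re-expression of SMARCB1 changed these transcripts, for which SMARCB1 Dox was set against SMARCB1 DMSO. TEAD3 and CCN1 rose and YAP1 fell, while the other 7 members did not pass the test. All 3 changes were smaller than 1.5-fold. In edgeR's quasi-likelihood test with Benjamini-Hochberg adjustment over all genes, 3 of 10 members were thus called (2 higher, 1 lower), where 14.0% of all genes tested were called, 8.33% higher and 5.69% lower. The median log2 fold change was -0.03 over the members and -0.004 over all genes. The members' median thus lay close to that of all genes, and no common direction was seen. With scaling to library totals the medians of the members and of all genes moved together, to 0.08 and 0.09, and the share of higher genes among all calls went from 59.4% to 80.0%.

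Of the coactivators, YAP1 (ENSG00000137693, chromosome 11, positions 102110447 to 102233424) had 182 and 186 CPM in SMARCB1 DMSO and 153 and 161 CPM in SMARCB1 Dox. The libraries of both groups did not overlap, and the drop was small beside the level of the transcript. The log2 fold change was -0.23 ± 0.076 (standard error, SE; edgeR, adjusted p = 0.0484). This call lay at the threshold, and it was kept in 4 of 17 alternative settings, whose adjusted p ranged from 0.0114 to 0.363. It was lost with each of the 8 libraries left out in turn, with log2 fold changes from -0.26 to -0.20. In the GFP line, YAP1 was at 187 and 189 CPM with DMSO and 191 and 192 CPM with Dox. All 6 libraries without induced SMARCB1 thus lay between 182 and 192 CPM. WWTR1, which encodes the other coactivator, was at 99.7 and 107 CPM in SMARCB1 DMSO and 105 and 114 CPM in SMARCB1 Dox, a log2 fold change of 0.09 ± 0.0822 (SE; edgeR, adjusted p = 0.559). Per kilobase of exon, YAP1 was 2.42 and 2.30 times as abundant as WWTR1 in SMARCB1 DMSO and 1.93 and 1.86 times in SMARCB1 Dox, against 2.87 to 3.15 times in the GFP line. This ratio was chosen after the values were seen. Exons of YAP1 share up to 628 bases, and those of WWTR1 up to 756 bases, with a noncoding gene on the opposite strand. Those of CCN2 share 278 bases with a noncoding gene and those of TEAD2 319 bases with CD37, also on the opposite strand. Exons of AMOTL2 share 187 bases with a pseudogene on the same strand. The strand option of the counting was not given.

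Of the TEAD transcription factors, TEAD3 (ENSG00000007866, chromosome 6, positions 35473597 to 35497079) moved most. It was at 32.8 and 34.3 CPM in SMARCB1 DMSO and at 48.9 and 42.8 CPM in SMARCB1 Dox. Both Dox libraries lay above every other library, since the GFP libraries ranged from 32.0 to 34.9 CPM. The log2 fold change was 0.45 ± 0.0918 (SE), that is 1.36-fold (edgeR, adjusted p = 0.00179). TEAD3 was called in all 17 alternative settings, with log2 fold changes from 0.34 to 0.54. It is 1 of 4 members with no overlapping gene in the annotation.

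The other TEADs did not pass the test. TEAD1, the most abundant of the family, was at 685 and 627 CPM in SMARCB1 DMSO and 717 and 685 CPM in SMARCB1 Dox, so that the groups touched at 685 CPM. TEAD2 was at 41.6 and 43.6 CPM against 37.6 and 40.3 CPM, and TEAD4 at 62.2 and 59.9 CPM against 56.8 and 50.0 CPM. Both were lower on average with Dox, with log2 fold changes of -0.13 ± 0.0888 and -0.19 ± 0.0858 (SE) and adjusted p of 0.398 and 0.155 (edgeR). With the trend of counts against the GC content of the exons taken out of each library, an alternative chosen after seeing the data, TEAD4 was called at -0.34 (edgeR, adjusted p = 0.00605). TEAD4 has the highest exon GC content of the members, 63.3%.

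Shares of the summed TEAD RNA per kilobase put these values side by side. TEAD3 made up 9.28% and 10.2% of the sum in SMARCB1 DMSO, 13.3% and 12.3% once Dox was given, and 10.6% to 11.8% in the GFP line. The share of TEAD4 was 23.5% and 23.8% with DMSO and 20.7% and 19.4% with Dox in the SMARCB1 line, and 22.9% to 24.9% in the GFP line. TEAD1 held 50.5% to 56.4% in every library. The summed level changed little, from 116 and 111 CPM per kilobase in SMARCB1 DMSO to 121 and 114 in SMARCB1 Dox. These shares were computed after the single genes were seen, and they were not tested.

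**Figure D2:**
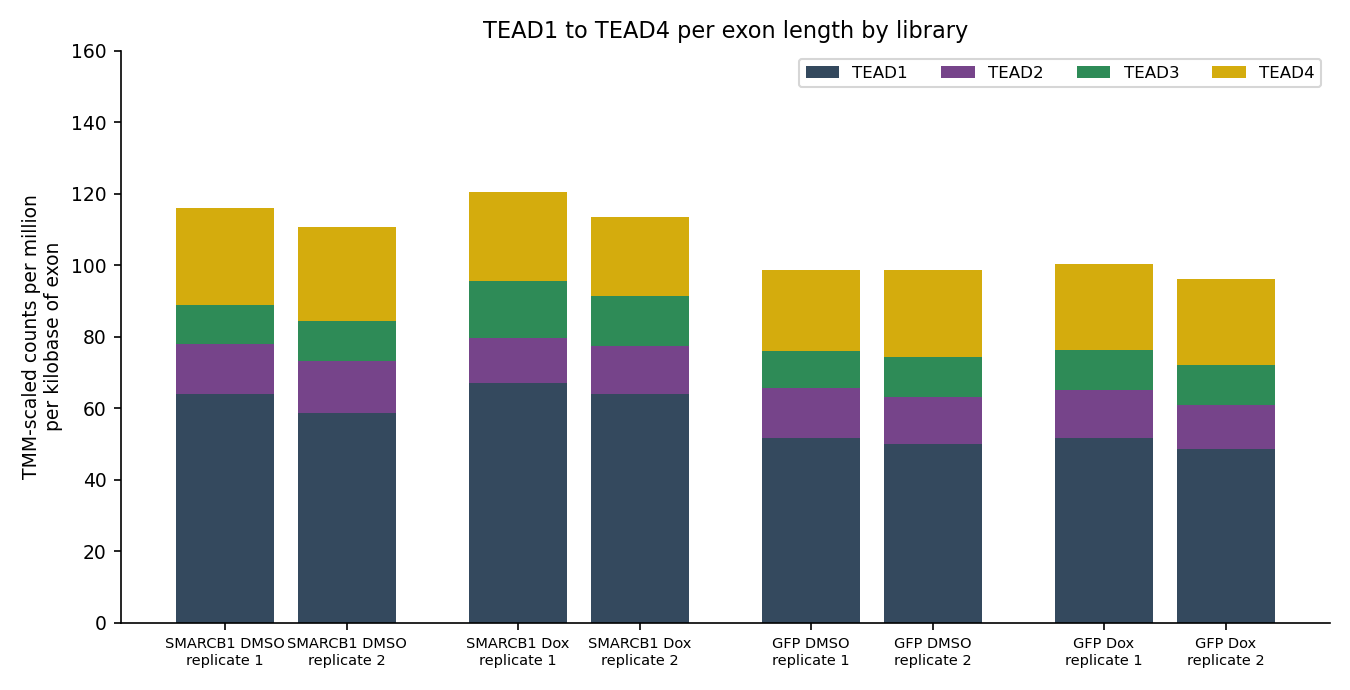
Stacked levels of TEAD1 to TEAD4 in each library, in TMM-scaled CPM per kilobase of exon (y axis, from 0), by library (x axis). TEAD1 takes the largest segment in every library, between 50.5% and 56.4%, and the TEAD3 segment is taller in both SMARCB1 Dox libraries than in the 6 others, at 13.3% and 12.3% of the sum.

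Of the target genes, only CCN1 was called with SMARCB1, and not in every alternative. CCN1 (ENSG00000142871, chromosome 1, positions 85580761 to 85584589), which encodes a matricellular protein, was at 101 and 68.2 CPM in SMARCB1 DMSO and at 126 and 100 CPM in SMARCB1 Dox. The groups overlapped by less than 1 CPM, since SMARCB1 DMSO replicate 1 lay just above SMARCB1 Dox replicate 2. The log2 fold change was 0.42 ± 0.127 (SE; edgeR, adjusted p = 0.0303). DESeq2 did not call it (adjusted p = 0.264), and neither did a fit of these 4 libraries alone (0.0572). Without SMARCB1 DMSO replicate 2 the log2 fold change was 0.16, without SMARCB1 Dox replicate 1 it was 0.25, and neither was called, whereas without SMARCB1 DMSO replicate 1 it was 0.73. The 17 settings gave adjusted p from 0.000101 to 0.416.

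CCN2 (ENSG00000118523, chromosome 6, positions 131948176 to 131951372), the related matricellular gene with 3 motif copies in the window printed above, was at 273 and 182 CPM in SMARCB1 DMSO and at 253 and 201 CPM in SMARCB1 Dox. The Dox libraries lay between the DMSO libraries. The log2 fold change was -0.0024 ± 0.129 (SE; edgeR, adjusted p = 0.997). It was 0.32 without SMARCB1 DMSO replicate 1 and -0.27 without SMARCB1 DMSO replicate 2, -0.18 without SMARCB1 Dox replicate 1 and 0.15 without SMARCB1 Dox replicate 2, and it was called in none of the 17 alternatives. AMOTL2, an angiomotin family scaffold that binds YAP, was at 238 and 266 CPM with DMSO and 226 and 245 CPM with Dox. ANKRD1, which encodes an ankyrin repeat protein of nucleus and sarcomere, had 267 and 176 counts with DMSO and 304 and 189 counts with Dox, that is 9.16 and 5.34 against 8.54 and 5.41 CPM. Neither was called, with log2 fold changes of -0.10 ± 0.0903 and -0.05 ± 0.267 (SE).

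Much of the spread of CCN1, CCN2 and ANKRD1 was common to the genes within a library. In SMARCB1 DMSO, replicate 1 exceeded replicate 2 by 1.48 times for CCN1, 1.50 times for CCN2 and 1.72 times for ANKRD1, and in SMARCB1 Dox by 1.25, 1.26 and 1.58 times. In the GFP line the same ratio was 0.929 and 0.993 for CCN1 and 1.05 and 1.10 for CCN2. AMOTL2 went the other way, at 0.851 to 0.928 in all 4 groups. The share of mitochondrial counts was 27.9% and 23.9% in SMARCB1 DMSO and 22.9% and 21.3% in SMARCB1 Dox, thus also higher in replicate 1, and its part in these ratios was not tested.

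CCN1 and CCN2 were also set against each other within each library. CCN1 made up 27.0% (95% Wilson interval 26.2 to 27.9) and 27.2% (26.3 to 28.2) of the CCN1 and CCN2 counts in the SMARCB1 DMSO libraries. In the SMARCB1 Dox libraries it made up 33.2% (32.4 to 34.0) and 33.2% (32.3 to 34.1). In GFP DMSO the share was 26.1% (25.0 to 27.2) and 28.6% (27.5 to 29.6), and in GFP Dox 26.3% (25.2 to 27.4) and 28.3% (27.3 to 29.4). Both SMARCB1 Dox libraries thus lay above the 6 others, by more than the gap between any pair of replicates. The intervals cover counting error only. The share was chosen after its values were seen, and with 2 libraries against 2 no exact permutation test can go below p = 0.333, so it is given as a description.

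**Figure D3:**
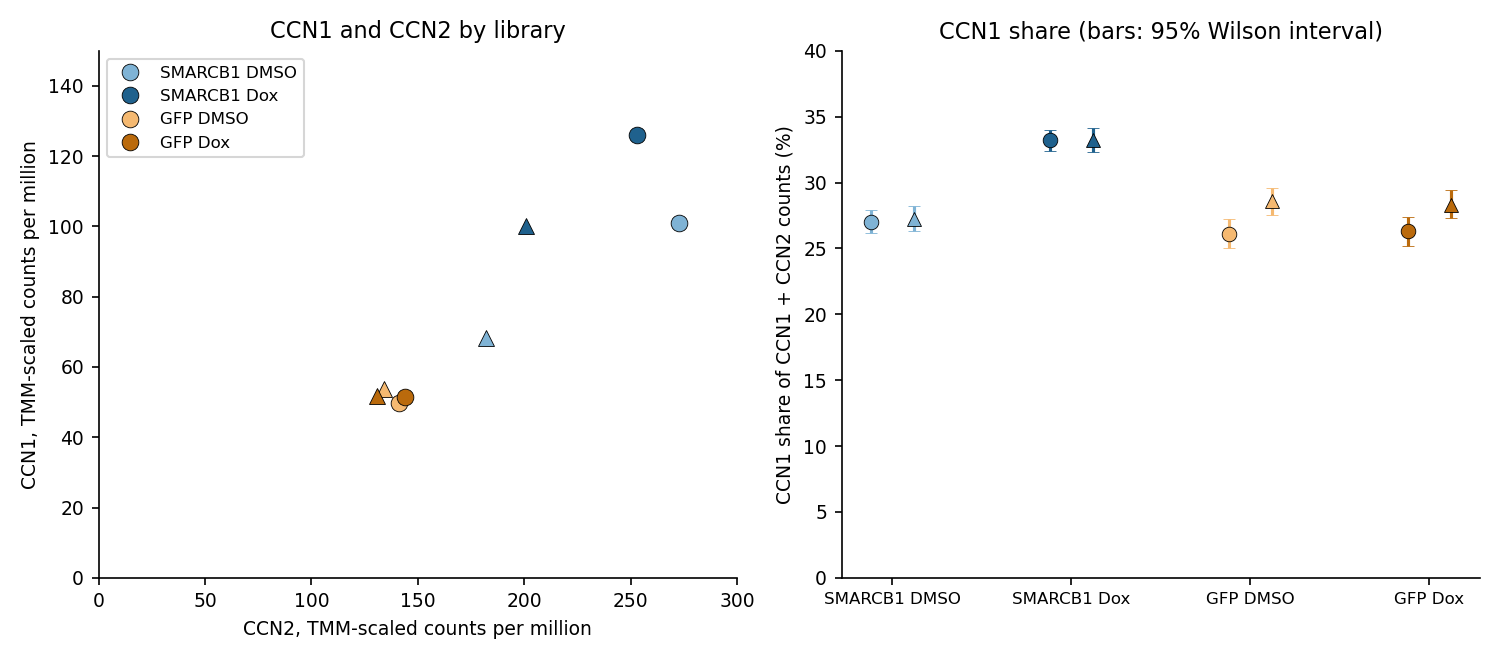
Left, CCN1 (y axis) against CCN2 (x axis) in each library, in TMM-scaled CPM; right, the percentage of CCN1 in the summed counts of both genes by group, with 95% Wilson intervals. Circles are replicate 1 and triangles replicate 2. The SMARCB1 libraries differ widely in level, but the share is 27.0% and 27.2% with DMSO and 33.2% in both libraries with Dox.

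The effect of Dox was then assessed in the GFP line, where it does not induce SMARCB1. None of the 10 members was called, where 0% of all genes were called. No member had an unadjusted p under 0.05 (edgeR; 266 of all 15931 genes did), and DESeq2 called none either. Excluding ANKRD1, which had 6 and 2 counts with DMSO and 6 and 0 with Dox, the members' log2 fold changes lay between -0.08 and 0.06. TEAD3 was at 32.0 and 34.4 CPM with DMSO and 34.9 and 34.5 CPM with Dox, and CCN1 at 49.8 and 53.6 CPM with DMSO and 51.4 and 51.8 CPM with Dox.

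A change in one line and none in the other does not show that the lines differed, so the difference of the Dox effects was tested. None of the 10 members was called for it, where 4.71% of all genes were called, 3.07% higher and 1.64% lower. DESeq2 called none of the members either, and 2 of them had an unadjusted p under 0.05 with it. With edgeR, 3 members had an unadjusted p under 0.05, as did 2577 of all 15931 genes. These 3 were TEAD3, with a difference on the log2 scale of 0.39 ± 0.13 (SE; edgeR, adjusted p = 0.106), CCN1 with 0.42 ± 0.182 (SE, adjusted p = 0.246) and YAP1 with -0.25 ± 0.107 (SE, adjusted p = 0.232). CCN1 was called without the expression filter (0.0362) and without SMARCB1 DMSO replicate 1 (0.00334), and TEAD3 without SMARCB1 Dox replicate 2 (0.0457). For CCN2 the difference was -0.0025 ± 0.184 (SE). The changes of TEAD3, CCN1 and YAP1 were therefore called within the SMARCB1 line, but their difference from the GFP line did not pass the test.

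**Figure D4:**
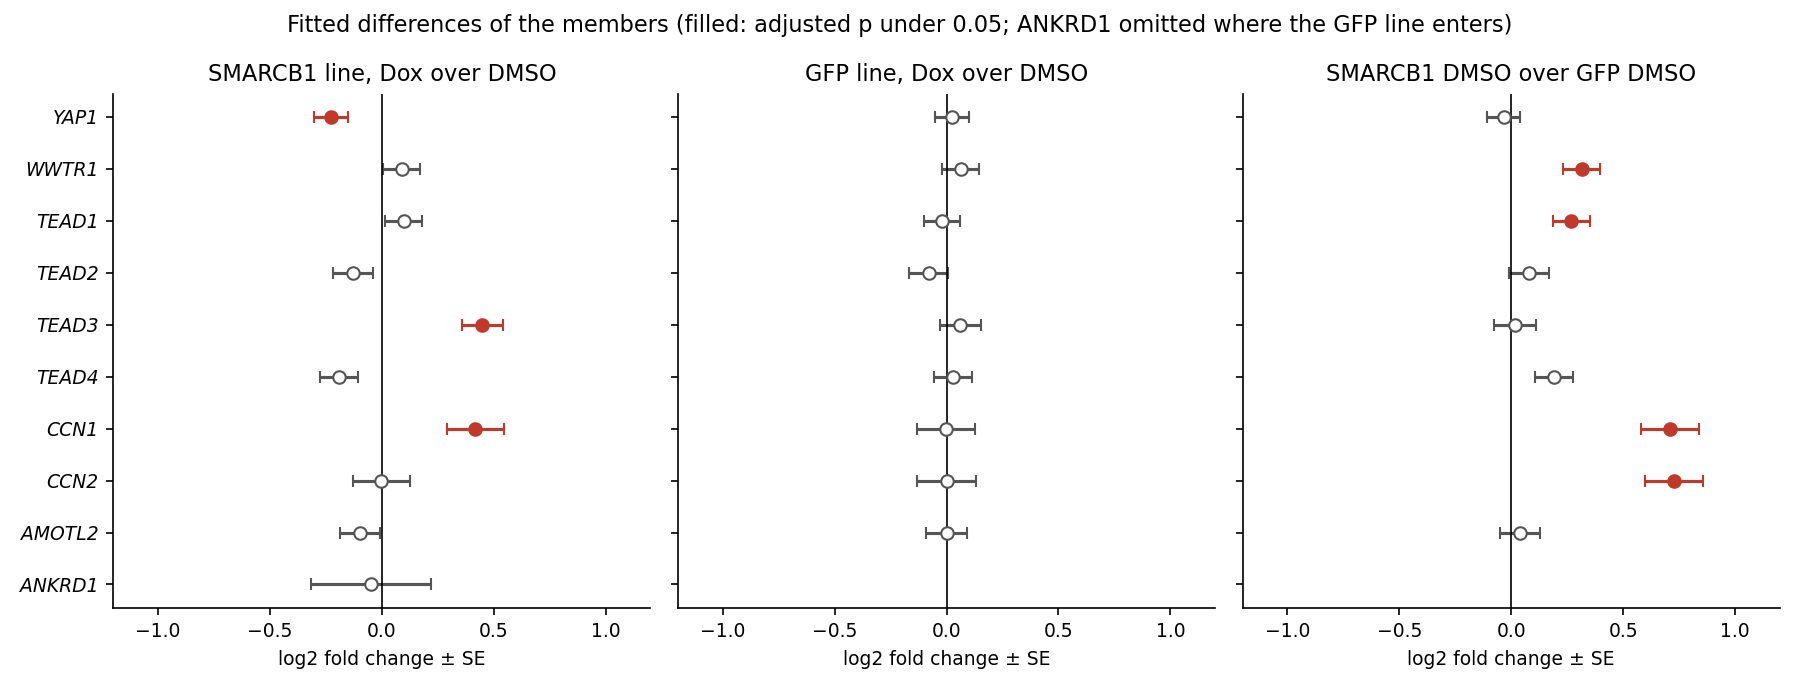
Fitted log2 fold change of each member with its standard error (x axis) in 3 comparisons, with called members filled. ANKRD1 is drawn only within the SMARCB1 line because it had at most 6 counts in a GFP library. In the left panel TEAD3 (0.45) and CCN1 (0.42) lie right of 0 and YAP1 (-0.23) left of it, in the middle panel all points lie near 0, and in the right panel WWTR1, TEAD1, CCN1 and CCN2 are higher in SMARCB1 DMSO.

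The uninduced lines were compared last, as SMARCB1 DMSO against GFP DMSO. CCN1, CCN2 and ANKRD1, WWTR1 and TEAD1 were higher in the SMARCB1 line. In edgeR 5 of 10 members were called, all higher, where 32.0% of all genes were called, 16.3% higher and 15.7% lower, and DESeq2 also called 5. Without ANKRD1, which passed the filter only through the SMARCB1 line, 4 of 9 were called. The median log2 fold change was 0.23 over the members, 0.19 without ANKRD1 and 0.01 over all genes. With scaling to library totals the medians of the members and of all genes were 0.11 and -0.10, and the share of higher genes among all calls went from 50.9% to 32.1%. Called genes were thus common between the lines, and the members' count is to be read against that. Markers also moved with the line. VIM was higher in SMARCB1 DMSO by 0.86 on the log2 scale (edgeR, adjusted p = 2.73e-08), and SMARCA4, KRT8 and KRT18 were lower, at -0.31, -0.63 and -0.55 (adjusted p = 0.0156, 1.34e-05 and 1.74e-05). The part of these differences in the members' values was not tested.

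ANKRD1 (ENSG00000148677, chromosome 10, positions 90912096 to 90921087) differed most. It had 267 and 176 counts in SMARCB1 DMSO and 6 and 2 counts in GFP DMSO. The pooled counts, 443 against 8, gave a ratio of 64.3 after scaling, with an exact 95% counting interval from 32.4 to 150. The ratio was 78.5 between the Dox groups (493 against 6 counts, interval 35.8 to 215). Both intervals cover counting error only and leave out the spread between the libraries of a group. ANKRD1 was thus near the limit of detection in the GFP line with or without Dox. CCN2 was at 141 and 134 CPM in GFP DMSO against 273 and 182 CPM in SMARCB1 DMSO, and CCN1 at 49.8 and 53.6 CPM against 101 and 68.2 CPM. Their log2 fold changes were 0.73 ± 0.131 and 0.71 ± 0.129 (SE; edgeR, adjusted p = 0.000148 and 0.000176). Every SMARCB1 library lay above every GFP library for these 3 targets, also with Dox. There CCN2 was at 253 and 201 CPM in SMARCB1 Dox and 144 and 131 CPM in GFP Dox. WWTR1 (99.7 to 114 against 78.7 to 87.4 CPM) and TEAD1 (627 to 717 against 520 to 554 CPM) were separated in the same way. The share of all genes so separated was not counted, while 32.0% of all genes were called between the uninduced lines. CCN1 and CCN2 were called in all 17 alternatives. ANKRD1 was tested only because the SMARCB1 line lifted it over the filter, so its call adds nothing to its counts. Without SMARCB1 DMSO replicate 1 the values were lowest, at 0.40 for CCN1 and 0.41 for CCN2, and without SMARCB1 DMSO replicate 2 they were highest, at 0.97 and 0.99.

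AMOTL2, the fourth target, did not separate the lines. It was at 225 and 265 CPM in GFP DMSO and at 238 and 266 CPM in SMARCB1 DMSO, a log2 fold change of 0.04 ± 0.0902 (SE; edgeR, adjusted p = 0.778). YAP1 was not called either, at -0.03 ± 0.0758 (SE; edgeR, adjusted p = 0.776). Its libraries did not overlap but lay close, at 182 and 186 CPM in SMARCB1 DMSO and 187 and 189 CPM in GFP DMSO. WWTR1 was at 78.7 and 87.4 CPM in GFP DMSO and at 99.7 and 107 CPM in SMARCB1 DMSO, a log2 fold change of 0.32 ± 0.0827 (SE; adjusted p = 0.00518). TEAD1 was at 554 and 534 CPM against 685 and 627 CPM, a log2 fold change of 0.27 ± 0.0816 (SE; adjusted p = 0.0143). The libraries of the lines did not overlap in these genes, but with scaling to library totals, neither WWTR1 (0.20) nor TEAD1 (0.15) was called. WWTR1 was also lost without GFP DMSO replicate 1 (0.24), and TEAD1 without SMARCB1 DMSO replicate 1 (0.20), GFP DMSO replicate 1 (0.29) or GFP DMSO replicate 2 (0.24). TEAD2, TEAD3 and TEAD4 were at 41.2 and 39.4, 32.0 and 34.4, and 51.4 and 55.4 CPM in GFP DMSO, and were not called.

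For the 3 members with the widest range of group means, the genes with the nearest pattern were sought among 9818 genes averaging 5 CPM or more, by the root mean square difference of the centred log2 means of the 4 groups. For ANKRD1 these were CCND2 (0.106), S100A10 (0.147) and SPRY2 (0.152). CCND2, a cyclin, had group means of 30.8 and 29.2 CPM in the SMARCB1 line and of 0.77 and 0.795 CPM in the GFP line. For CCN1 they were NPTX1 (0.0166), SLC25A4 (0.0268) and ZFHX4 (0.0325), and for CCN2 PLXNA1 (0.00569), GPR137B (0.00971) and SLC5A3 (0.0124). With 4 group means each, many genes can come close by the number of genes searched.

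The other genes of the pathway were followed by 5 lists. Their counts in the SMARCB1 line stand beside the 14.0% of all genes that were called, 8.33% higher and 5.69% lower, and with lists this short none is read as differing from that share. Among 15 Hippo kinases and adaptors, 1 rose and 2 fell with SMARCB1, and 12 did not pass, which is close to the share over all genes. SAV1, the scaffold of the STK3 and STK4 kinases, rose from 43.8 and 40.2 to 63.0 and 62.6 CPM, a log2 fold change of 0.58 ± 0.0846 (SE; edgeR, adjusted p = 5.29e-05). LATS1, a kinase that phosphorylates YAP and TAZ, fell from 79.6 and 74.9 to 55.6 and 60.8 CPM (log2 fold change -0.41, adjusted p = 0.00143). LATS2, the related kinase, was added after the values were seen. It was at 222 and 252 CPM with DMSO and 243 and 246 CPM with Dox, and did not pass (0.04, edgeR adjusted p = 0.8). FRMD6, a membrane-associated activator of the cascade, fell from 57.7 and 54.8 to 39.1 and 41.8 CPM (-0.48, adjusted p = 0.00254). The scaffold thus rose, LATS1 fell and LATS2 did not pass, while the list's median log2 fold change was -0.01 beside -0.004 for all genes. Each of these 3 calls held in 17 of 17 alternatives. With scaling to library totals 4 of the 15 rose and 2 fell, and the median was 0.08, beside 0.09 for all genes.

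Of 14 listed cofactors and partners of YAP, TAZ or TEAD, 11 were tested and 2 rose, with none lower and a median of 0.06, beside 8.33% of all genes higher. AJUBA, a LIM domain protein that binds LATS kinases, rose from 44.8 and 45.3 to 75.5 and 66.9 CPM (log2 fold change 0.66, edgeR adjusted p = 1.35e-05). WBP2, which binds the WW domains of YAP and TAZ, rose from 62.0 and 59.3 to 90.6 and 84.7 CPM (0.53, adjusted p = 8.16e-05). None of the 9 tested polarity and atypical cadherin genes of 13 listed was called by edgeR or DESeq2. With edgeR, 4 of them had an unadjusted p under 0.05, as did 4148 of all 15931 genes. The list's median was 0.20, beside -0.004 for all genes.

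Among 18 other YAP and TAZ target genes, 4 rose, 1 fell and 13 did not pass, with a median of 0.16. Over all genes the median was -0.004, and 8.33% rose and 5.69% fell. Scaled to library totals, 7 of the targets rose and 1 fell, with a median of 0.25 beside 0.09 for all genes. AXL, a receptor tyrosine kinase, rose from 39.3 and 32.4 to 99.5 and 82.0 CPM, 2.53-fold (log2 fold change 1.34 ± 0.103 SE, edgeR adjusted p = 1.66e-08). This was the largest rise among the 18. GADD45A, a stress-response gene, rose from 17.2 and 18.1 to 25.5 and 26.6 CPM (0.56, adjusted p = 0.00139). ARHGEF17 rose by 0.29 (adjusted p = 0.0363) and lost its call in 6 of 17 alternatives, among them each that left out a SMARCB1 library, with log2 fold changes there from 0.23 to 0.35. The fourth, F3, which encodes tissue factor, was singled out after its values were seen, at 1.36 to 3.91 CPM in the SMARCB1 line. IGFBP3, an insulin-like growth factor binding protein, fell from 659 and 462 to 373 and 295 CPM (-0.75, adjusted p = 0.000533), and without single libraries it lay between -0.98 (without SMARCB1 DMSO replicate 2) and -0.47 (without SMARCB1 DMSO replicate 1), called each time. Like CCN1, CCN2 and ANKRD1, it was higher in replicate 1 in both SMARCB1 groups.

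Immediate-early genes were listed because several of them share upstream signals with CCN1. Of 13 listed, 11 were tested, 3 rose and 1 fell, with a median of 0.06, where 14.0% of all genes were called. EGR1 rose from 10.6 and 6.28 to 14.7 and 13.9 CPM (log2 fold change 0.77, edgeR adjusted p = 0.00509), but without SMARCB1 DMSO replicate 2 it was 0.43 and not called, and without SMARCB1 DMSO replicate 1 it was 1.19. IER3 rose from 14.6 and 12.2 to 24.6 and 22.9 CPM (0.83, adjusted p = 1.28e-05). JUN, at 2.34 to 6.94 CPM in the SMARCB1 line and also singled out after its values were seen, was the third. MYC fell from 148 and 137 to 110 and 96.7 CPM (-0.46, adjusted p = 0.000631).

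**Figure D5:**
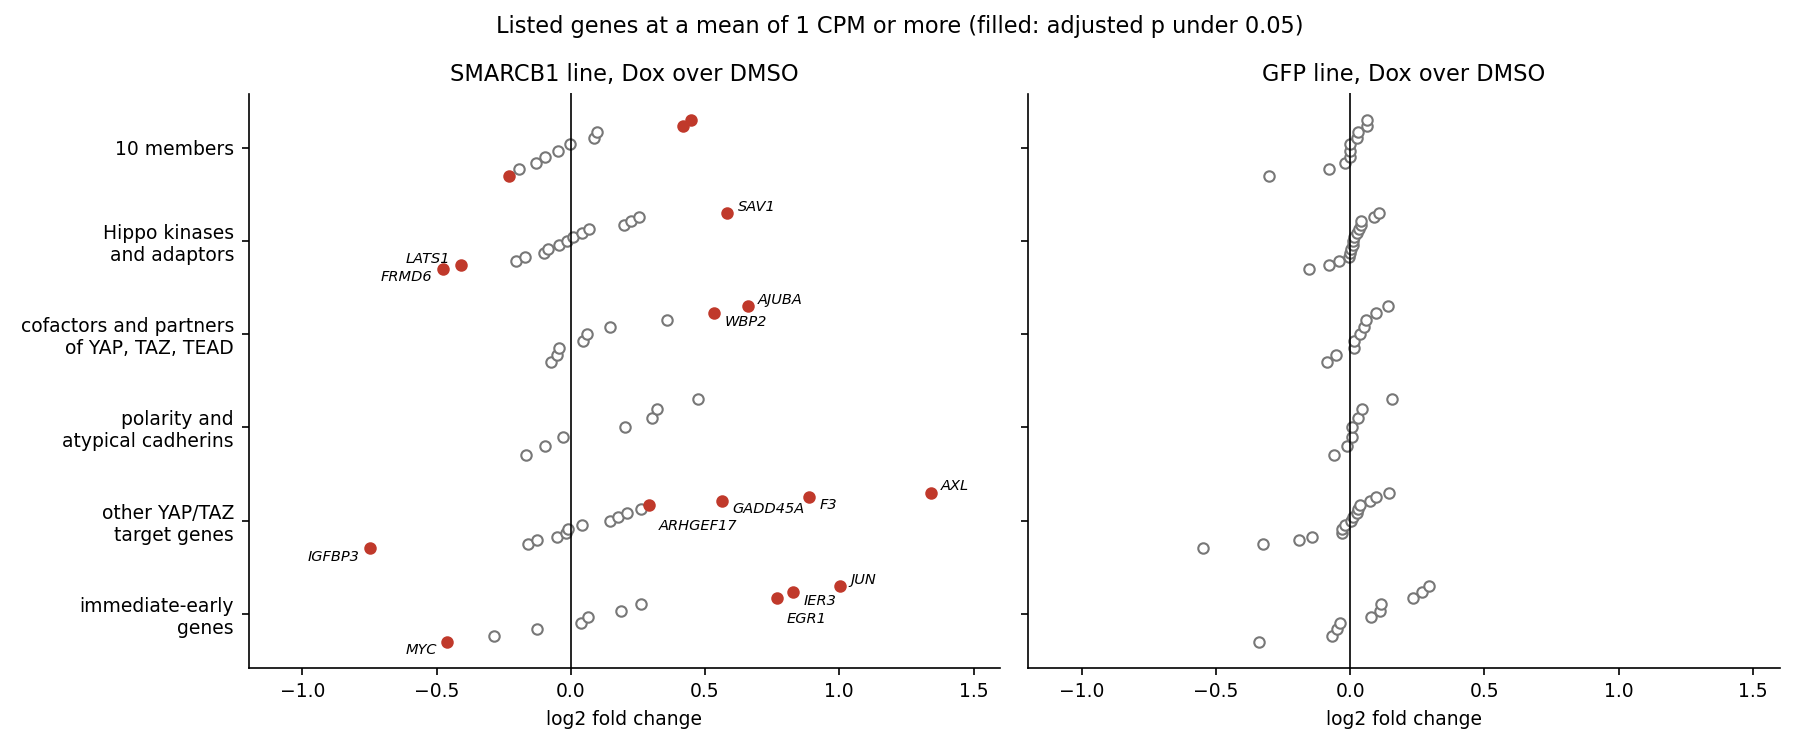
Fitted log2 fold change of Dox over DMSO (x axis) for the members and the 5 pathway lists (y axis, genes of a list ordered by value) in the SMARCB1 line (left) and the GFP line (right), for genes at a mean of 1 CPM or more over the groups. Filled points were called, with their names for the lists. AXL at 1.34 and IGFBP3 at -0.75 mark the ends among the other YAP and TAZ targets, and no gene is filled in the GFP line, where the lowest member is ANKRD1, at no more than 6 counts per library.

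In the GFP line no gene of these lists was called by edgeR, and DESeq2 called none of them. With edgeR, only 1 cofactor and 1 target gene had an unadjusted p under 0.05, as did 266 of all 15931 genes. The difference of the Dox effects, called for 4.71% of all genes, was called for 8 of the 62 tested genes of the lists (LATS2 and PTPN14 stand in 2 lists each), namely SAV1, LATS1, AJUBA, WBP2, AXL, IGFBP3, IER3 and MYC. AXL was at 35.4 and 35.5 CPM in GFP DMSO and at 30.5 and 31.6 CPM in GFP Dox, and its effects differed by 1.53 on the log2 scale ± 0.146 (SE; edgeR, adjusted p = 6.42e-06). AJUBA was at 32.5 to 34.4 CPM in all 4 GFP libraries, with a difference of 0.71 (adjusted p = 0.00115). The call was kept in all 16 alternatives for SAV1, AJUBA, AXL and IER3, and in 14 for MYC, 12 for WBP2, 10 for IGFBP3 and 8 for LATS1.

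Between the uninduced lines, 32.0% of all genes were called, 16.3% higher and 15.7% lower, and the counts of the lists stand beside that share. Of the 18 target genes, 9 were higher in SMARCB1 DMSO and 2 lower, with a median log2 fold change of 0.57, which was unchanged with FOXF2, at 0 counts in GFP DMSO, set to its floor of 3 counts. NT5E, an ecto-nucleotidase, was at 108 and 94.1 CPM against 1.24 and 0.99 CPM, a log2 fold change of 6.50 ± 0.134 (SE; edgeR, adjusted p = 1.82e-19). DOCK5, a guanine nucleotide exchange factor, was at 15.0 and 14.7 against 2.55 and 2.16 CPM (2.66). IGFBP3 and FJX1 were higher by 1.43 and 1.34, and MYOF and NUAK2 were lower, at -0.35 and -0.33, on the same scale. AXL, which rose with SMARCB1, did not pass the test between the uninduced lines, at 39.3 and 32.4 against 35.4 and 35.5 CPM.

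Among the 15 kinases and adaptors, 6 were higher and 1 lower in SMARCB1 DMSO, with a median of 0.08. FRMD6 was at 57.7 and 54.8 against 6.31 and 8.31 CPM, a log2 fold change of 2.94 (edgeR, adjusted p = 5.5e-15). WWC2 (0.56), NF2 (0.46) and MOB1B (0.43) were higher and WWC1 lower (-0.26), all of them upstream regulators or kinase partners. Of the 11 tested cofactors, 5 were higher and 2 lower with a median of 0.40, led by PTPN21 (1.55), TJP1 (0.76), WTIP (0.69) and AJUBA (0.40), with WBP2 (-0.34) and AMOTL1 (-0.26) lower. Of the 9 tested polarity genes, 1 was higher and 2 lower with a median of -0.13. CRB2, an apical polarity gene, was at 1.13 and 1.36 CPM against 28.5 and 31.9 CPM (-4.59, adjusted p = 8.76e-16), and LLGL1 was lower by -0.26. Of the 11 tested immediate-early genes, 2 were higher and 3 lower with a median of 0.03, ATF3 at 0.93 and FOS, IER3 and JUNB at -2.22, -1.33 and -0.59. Some of the smaller differences lost their calls without single libraries. WWC1 did so without SMARCB1 DMSO replicate 2 or either GFP DMSO library (-0.29 to -0.23 over the 8 libraries left out), and AMOTL1 (-0.28 to -0.24) and LLGL1 (-0.38 to -0.15) without SMARCB1 DMSO replicate 1 or either GFP DMSO library. MYOF did so without GFP DMSO replicate 2 (-0.44 to -0.25), and NUAK2 without it or either SMARCB1 DMSO library (-0.42 to -0.24).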

How the data were processed

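RNA of G401 cells was sequenced in 4 groups of 2 libraries, whose groups and replicate numbers were taken from the sample titles. The authors deposited unnormalized read counts for each gene, made with STAR and HTSeq (versions not given in the sources used here) on hg38, per the labels and the study's methods. Counting used HTSeq's intersection-strict mode and the exons of GENCODE v42, which leaves out reads that fit several genes. The strand option was not given, and the library kit named in the labels differs from that in the methods. The 5 entries per library that name no gene held 27% to 29.3% of the reads and were left out. Methods state duplicate experiments with 6 plates pooled per condition; p-values measure the spread between these libraries, which differed from each other beyond sampling noise.

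Gene counts per library ranged from 29632090 to 37597477. Symbols, positions and exon lengths came from GENCODE v44 (62625 of 69215 identifiers matched). The test was edgeR 4.0.16 (R 4.3.3), with its default expression filter and TMM factors. A single quasi-likelihood model covered the 8 libraries, and a gene counted as called where its p, adjusted by Benjamini-Hochberg over all genes tested, was under 0.05. The study's methods name DESeq2 (1.42.0 here), which was run as an alternative, beside other scalings and filters, only the groups compared, a replicate block, each library left out in turn and, added after seeing the data, the GC trend removed by a lowess fit (span 0.3). Standard errors are the size of the log2 fold change divided by the square root of F. Levels are CPM with TMM factors, and gene means over the groups used a pseudocount of 0.1 CPM on the log2 scale for the nearest patterns. The steps were tested on simulated data. The members, the pathway and marker lists and the tests were chosen with earlier results of these data known. All members were described, and from each list at most 4 called genes per direction with the largest change, a mean of at least 5 CPM and groups that did not overlap. The 3 nearest genes were named for each of the 3 members of widest range. The study's ribosome profiling data were not used here. A further marker list is not reported here.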

Additional observations from a re-analysis of the deposited data

Results flagged for a closer look

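The Dox effect differed between the SMARCB1 line and the GFP line for 8 of the 62 tested genes of the 5 pathway lists, where 4.71% of all 15931 genes were called, by the test of the difference itself (edgeR quasi-likelihood test, Benjamini-Hochberg adjustment over all genes). Higher in the SMARCB1 line were the log2 effects of AXL by 1.53 (adjusted p = 6.42e-06), IER3 by 0.88 (0.000786), AJUBA by 0.71 (0.00115), SAV1 by 0.58 (0.00544) and WBP2 by 0.47 (0.0153). The differences of MYC, IGFBP3 and LATS1 were -0.54 (adjusted p = 0.00898), -0.72 (0.0303) and -0.43 (0.0304). SAV1, AJUBA, AXL and IER3 kept the call in all 16 alternatives. LATS1 lost it with library totals, with the GC trend removed and without any single library other than SMARCB1 DMSO replicate 2 and SMARCB1 Dox replicate 2 (-0.50 to -0.37 over the libraries left out). IGFBP3 lost it with DESeq2, with the GC trend removed and without SMARCB1 DMSO replicate 1, SMARCB1 Dox replicate 2, GFP DMSO replicate 2 or GFP Dox replicate 1 (-0.95 to -0.44). WBP2 lost it without SMARCB1 Dox replicate 1, GFP DMSO replicate 1 or either GFP Dox library (0.43 to 0.52), and MYC without GFP DMSO replicate 1 or GFP Dox replicate 2 (-0.63 to -0.45).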

How the results depend on the processing

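TEAD3 with SMARCB1, and CCN1 and CCN2 between the uninduced lines, were called in all 17 alternatives. Of the members, 3 were called within the SMARCB1 line, 1 with only the groups compared and 1 to 2 with single libraries left out, where the lone library of a group is assumed to vary like the others. For the difference of the Dox effects they numbered 0, 1 without the expression filter and 0 to 1 with libraries left out. Between the uninduced lines they numbered 5 (4 of 9 without ANKRD1), 3 with library totals and 3 to 5 with libraries left out. In the GFP line they numbered 0 in all 17 alternatives. Over all genes, leaving libraries out gave 1284 to 2088 calls for the SMARCB1 line in place of 2234, and 390 to 805 for the difference in place of 750.

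Some members of small effect changed sign. ANKRD1 in the SMARCB1 line went from -0.05 to 0.054 with library totals and 0.026 with the GC trend removed (chosen after seeing the data), and from -0.42 to 0.38 over libraries left out. With library totals TEAD2 went to 0.028 for the difference of the effects, and between the lines TEAD2, TEAD3 and AMOTL2 went to -0.035, -0.099 and -0.074. Over libraries left out, TEAD3 and AMOTL2 ranged from -0.036 to 0.063 and from -0.073 to 0.16 between the lines. For the difference of the effects WWTR1 ranged from -0.047 to 0.099, TEAD2 from -0.12 to 0.029, AMOTL2 from -0.21 to 0.016 and ANKRD1 from -0.84 to 4.94. In the GFP line WWTR1 ranged from -0.011 to 0.14, TEAD1 from -0.069 to 0.020, TEAD4 from -0.024 to 0.079 and ANKRD1, at 0 to 6 counts, from -4.99 to 0.79. The cause was not tested. A fit to only the groups compared gave no value for the difference of the effects, which needs all 4 groups, nor for ANKRD1 in the GFP line.

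The replicate numbers are shared between groups, but the labels do not say that a number marks a common batch, and deviations of same-numbered libraries correlated by 0.0309 to 0.148 across genes. With the replicate block 2 members (TEAD3 and CCN1) were called for the difference of the Dox effects, 6 between the lines, with TEAD4 added, and 3 and 0 in the SMARCB1 and GFP lines. Over all genes the block gave 1282 calls for the difference in place of 750.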
